A study of Mus musculus with 12 samples.

Results

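The nuclear genes for the complexes of oxidative phosphorylation were followed in G1-phase mouse embryonic stem cells. They were picked by symbol alone, as every gene of the expression table whose name begins as those of the subunits of complexes I to V do (Nduf followed by a, b, c, s or v and a number, Sdha to Sdhd, Uqcr, Cyc1, Cox4 to Cox8, and Atp5). The rule found 86 of 24881 genes, of which 38 belonged to complex I, 4 to complex II, 9 to complex III, 18 to complex IV and 17 to complex V. Some of them are not subunits of the complex whose name they carry. Cox7a2l joins complexes into supercomplexes, Atp5s is the coupling factor B, and Ndufa4 with its relative Ndufa4l2 is now placed in complex IV. Ndufb4c was annotated as a processed pseudogene. The subunits that mitochondrial DNA encodes were not analysed here.

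Oxidative phosphorylation is the chain of reactions in the inner mitochondrial membrane that turns the electrons of NADH and succinate into a proton gradient and the gradient into ATP. Complexes I and II feed electrons to ubiquinone, complex III passes them to cytochrome c, complex IV hands them to oxygen, and complex V, the ATP synthase, is driven by the protons that complexes I, III and IV pump. Mouse embryonic stem cells make ATP by glycolysis and by respiration, and the share of each is known to differ between pluripotent states.

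All cells were R1 embryonic stem cells carrying the FUCCI cell cycle reporter and sorted in G1 phase by flow cytometry. The groups were wild-type (WT) or P53-/- cells, the latter made with CRISPR/Cas9 guides against an exon that the Trp53 isoforms share, and each genotype was grown in serum medium with LIF or in 2i, a serum-free medium with LIF, the MEK inhibitor PD0325901 and the GSK3 inhibitor CHIR99021. Each of the 4 groups had 2 libraries of rRNA-depleted total RNA, 8 in all, numbered here in the order of the table. The P53-/- cells of the study were clones, and which library held which clone was not given. Of the 12 samples of the series, those of P21-/- cells and their WT controls were not analysed here. Values were FPKM, fragments scaled for transcript length and for the fragments mapped in the library.

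Trp53 stood at 77.6 and 75.1 FPKM in WT serum and 26.8 and 33.7 in WT 2i, against 16.8 and 3.68 in P53-/- serum and 7.25 and 1.88 in P53-/- 2i, so every P53-/- library was below every WT library. All 8 stem cell markers exceeded 5 FPKM in each library. The lists for primitive endoderm, mesoderm and trophoblast each summed to at most 5.32 FPKM. The fibroblast list, of 4 genes, summed to 8.30 and 7.73 in WT serum, 10.5 and 8.74 in P53-/- serum, and in 2i to 1.34 and 0.844 for WT and 0.456 and 0.688 for P53-/- cells. Thy1 was the larger part in every library but the second of WT 2i, where it was at 0.343 and Col1a1 at 0.501 FPKM, and Col3a1 was listed at 0 throughout. The neural list summed to between 17.3 and 34.0 FPKM, mostly Tubb3. Read off the smallest FPKM steps, the deepest library had an estimated 2.52 times the fragments of the shallowest.

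The promoters of 5 members are shown because they carry the contrast that recurs below, namely that genes of the same complex, and even genes for the same protein, moved apart. Atp5g1, Atp5g2 and Atp5g3 encode the same mature c subunit of the ATP synthase ring. Ndufa11 and Ndufs6 are accessory subunits of complex I whose levels went in opposite directions. NRF1, a factor known to act on many respiratory genes, binds sites of the form GCGCNTGCG, and matches are in capitals. Each motif was searched on both strands. The sequences are from RefSeq, build GRCm38.p6, 250 bases before to 50 after the start.

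Atp5g1, chr11:96075582-96075881, minus strand: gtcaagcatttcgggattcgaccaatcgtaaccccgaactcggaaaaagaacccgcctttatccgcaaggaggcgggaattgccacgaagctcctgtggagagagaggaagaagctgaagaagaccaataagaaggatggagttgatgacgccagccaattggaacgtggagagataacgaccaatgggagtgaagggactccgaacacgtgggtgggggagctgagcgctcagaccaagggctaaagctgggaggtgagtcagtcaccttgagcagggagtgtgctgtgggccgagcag

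Atp5g2, chr15:102670998-102671297, minus strand: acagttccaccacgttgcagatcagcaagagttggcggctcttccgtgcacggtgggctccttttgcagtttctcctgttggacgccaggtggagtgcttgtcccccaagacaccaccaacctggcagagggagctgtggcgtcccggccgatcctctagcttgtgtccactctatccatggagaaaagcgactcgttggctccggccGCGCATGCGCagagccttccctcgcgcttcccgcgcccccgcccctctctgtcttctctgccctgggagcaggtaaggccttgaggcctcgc

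Atp5g3, chr2:73911277-73911576, minus strand: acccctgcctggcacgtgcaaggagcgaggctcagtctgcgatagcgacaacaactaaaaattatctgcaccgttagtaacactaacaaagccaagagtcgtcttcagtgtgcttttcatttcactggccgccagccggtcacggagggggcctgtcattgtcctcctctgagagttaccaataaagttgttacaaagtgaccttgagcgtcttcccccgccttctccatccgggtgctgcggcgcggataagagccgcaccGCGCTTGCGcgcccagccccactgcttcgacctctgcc

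Ndufa11, chr17:56717512-56717811, plus strand: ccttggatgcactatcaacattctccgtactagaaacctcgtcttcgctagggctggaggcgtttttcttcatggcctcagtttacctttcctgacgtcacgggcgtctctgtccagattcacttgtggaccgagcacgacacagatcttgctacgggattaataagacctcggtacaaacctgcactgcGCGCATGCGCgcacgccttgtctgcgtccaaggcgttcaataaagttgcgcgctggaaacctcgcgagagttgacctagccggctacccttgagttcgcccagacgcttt

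Ndufs6, chr13:73328433-73328732, minus strand: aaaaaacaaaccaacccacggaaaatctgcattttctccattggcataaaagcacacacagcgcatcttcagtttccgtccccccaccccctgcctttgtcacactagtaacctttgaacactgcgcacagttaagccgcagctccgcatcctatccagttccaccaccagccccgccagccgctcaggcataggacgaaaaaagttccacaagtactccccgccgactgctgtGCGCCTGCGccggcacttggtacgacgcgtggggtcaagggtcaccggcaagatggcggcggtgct

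Of the 86 members, 68 had a window in the RefSeq table, with 73 windows in all. The NRF1 letters lay in 24 of them (32.9%), against 6.31% of all 32851 windows of this length. The letters CCGGAAG of ETS factors such as GABP lay in 16 (21.9% against 8.86%), those of YY1, AAGATGGCG, in 7 (9.59% against 1.40%), and those of the estrogen-related receptors, TCAAGGTCA, in 2 (2.74% against 0.423%). NRF1 letters were found in Atp5g2, Atp5g3, Ndufa11 and Ndufs6 and not in the Atp5g1 window. They occurred in 8 of the 35 matched members that were called higher in WT 2i than in WT serum and in 4 of the 5 called lower.

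Of the 86 members, 83 reached the mean of 0.5 FPKM needed for a test. Cox8b, the muscle form of a complex IV subunit, was listed at 0 in all 8 libraries, and Cox8c, the testis form, had 0.278 FPKM in the first P53-/- serum library and 0 elsewhere. Ndufs5, an accessory subunit of complex I, never exceeded 0.000959 FPKM, although the other complex I subunits were well expressed, and how the authors' counting treated it is not given in the sources used here. Per length, the highest mean over the libraries in each complex was that of Ndufa4 (893 FPKM), Sdhb (167), Uqcr10 (726), Cox6c (1028) and Atp5b (1536), and the lowest among tested members that of Ndufa4l2 (0.777), Sdha (87.8), Uqcrq (37.2), Cox4i2 (0.809) and Atp5s (4.22). The median member level was 118 FPKM in complex I, 126 in complex II, 196 in complex III, 390 in complex IV and 250.2 in complex V. The low end of complexes I, IV and V was held by isoforms that other tissues use and by Atp5s.

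The first question was how the respiratory genes differed between the media. Summed over all 86 members, the FPKM were 14992 and 17383 in WT serum and 23823 and 23979.5 in WT 2i, and 18268 and 19878 in P53-/- serum and 26349.6 and 24050.3 in P53-/- 2i. As a share of the summed FPKM of protein-coding genes this was 3.64 and 3.71% in WT serum, 5.25 and 5.33% in WT 2i, 4.33 and 4.41% in P53-/- serum and 5.51 and 5.43% in P53-/- 2i. All 4 libraries of 2i cells were above all 4 of serum cells, and the P53-/- serum libraries lay between the WT serum and the 2i libraries. With 2 libraries a group, the smallest 2-sided p of an exact permutation test is 0.333, so the sums are given without a test. In such bulk samples, fewer cells of a type and less RNA per cell cannot be told apart.

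**Figure D1:**
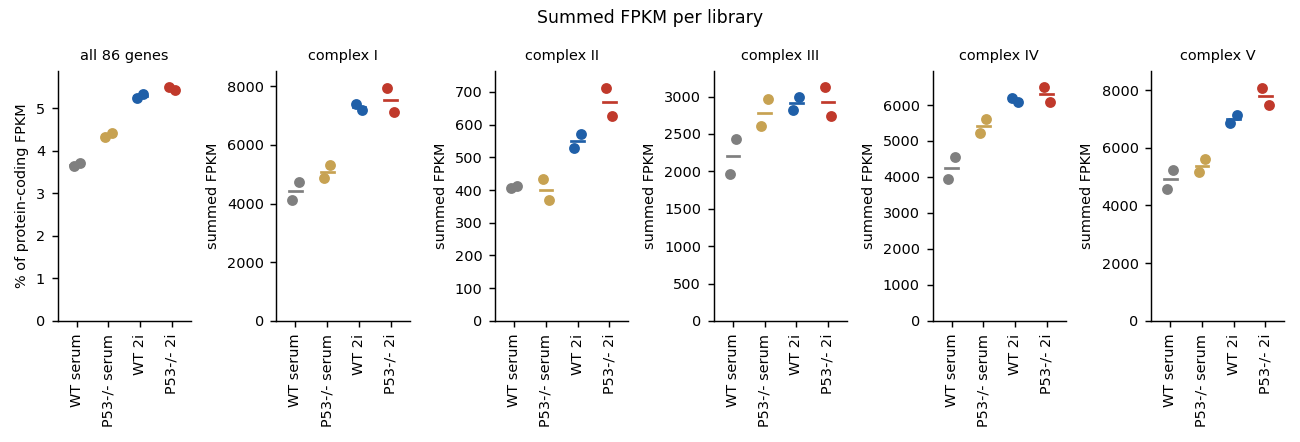
Summed FPKM of the members in each of the 8 libraries, as a percentage of the summed FPKM of protein-coding genes for all 86 members (first panel) and in FPKM for each complex (other panels, each with its own scale from 0). Points are libraries and bars are means of 2. The complex I sum lay between 4105 and 5309 FPKM in serum and between 7131 and 7931 in 2i, while the complex III sums of P53-/- serum and 2i overlapped.

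Gene by gene, a member was called when limma gave a Benjamini-Hochberg adjusted p below 0.1 over all 12572 genes tested and a change over 1.5-fold. In WT cells 47 of 83 members passed between 2i and serum, beside a background of 55.7% of all genes, so that the share called was near that of genes at large. Direction differed: 40 members were higher in 2i, where 27.2% of all genes were, and 7 were lower, where 28.6% were. In P53-/- cells 46 passed (background 58.2%), with 37 higher (28%) and 9 lower (30.1%). The median log2 change of the members was 0.56 in WT and 0.53 in P53-/- cells, beside -0.02 and -0.03 for all genes. These comparisons share no library. Of the members higher in 2i, 32 were called in both, which is 80.0% of the WT list and 86.5% of the P53-/- list, and 5 were lower in both, or 71.4% and 55.6%. Over all genes the corresponding shares were 81.5% and 79.0% for higher and 84.2% and 79.8% for lower, so the members' overlap was near that of genes at large for those higher. Those 5 were Atp5l, Uqcrq, Cox4i2, Atp5j and Ndufs6. Nothing in the labels says that libraries of a group came from separate cultures, so the p-values measure only the spread between these libraries.

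Members have short transcripts, and short transcripts moved with the medium. The median transcript length was 838 bases for the tested members and 2838.5 for all genes, and the 951 genes with a transcript of at most 1000 bases had a median log2 change of 0.48 in WT and 0.47 in P53-/- cells. When each library was centred on genes of like transcript length, the members' median was 0.42 in WT, with 31 higher and 8 lower, and 0.36 in P53-/- cells, with 30 higher and 13 lower. Of all 12572 genes, 3344 were then called higher and 3290 lower in WT, and 3391 and 3391 in P53-/- cells. The length classes used for this centring held small RNA genes, which the 951 short genes leave out. Centring without small RNA genes was not tested. Other gene groups of mitochondria and of translation set the scale. The 78 tested genes of mitochondrial ribosomal proteins had medians of 0.20 in WT and 0.24 in P53-/- cells, with 16 and 19 called higher and 7 and 6 lower. The 79 genes of cytoplasmic ribosomal proteins had 0.81 and 0.71, with 52 and 42 called higher and 2 and 4 lower. The shares called were 29.5% and 32.1% for the mitochondrial set and 68.4% and 58.2% for the cytoplasmic set. Of all genes, 55.7% and 58.2% were called, with 27.2% and 28% higher. What part transcript length had in the members' change was not tested beyond this centring.

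Complex I held 26 of the 47 calls in WT and 23 of the 46 in P53-/- cells, which is 70.3% and 62.2% of its tested genes beside 55.7% and 58.2% of all genes. The P53-/- shares called of complexes I, IV (62.5%) and V (52.9%) were near that background. Between 2i and serum in WT cells, 24 of 37 tested complex I genes were called higher and 2 lower, with a median log2 change of 0.77. The counts were 1 higher and 1 lower of 4 for complex II (median 0.46), 1 and 1 of 9 for complex III (0.44), 7 and 1 of 16 for complex IV (0.44) and 7 and 2 of 17 for complex V (0.40). In P53-/- cells they were 19 and 4 for complex I (0.68), 3 and 0 for complex II (0.86), 0 and 1 for complex III (0.15), 8 and 2 for complex IV (0.78) and 7 and 2 for complex V (0.39). Complex III had the fewest calls for its size in both genotypes. The median of complex III turned negative, at -0.11 in WT and -0.22 in P53-/- cells, after centring on transcript length, and those of the other complexes stayed positive. Without the first WT serum library the WT medians of complexes III and V were 0.25 and 0.19, and in P53-/- cells that of complex IV was 0.47 without the first P53-/- serum library and that of complex III 0.054 without the second. No test between complexes was made, because genes of a complex are not replicates of one another.

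**Figure D2:**
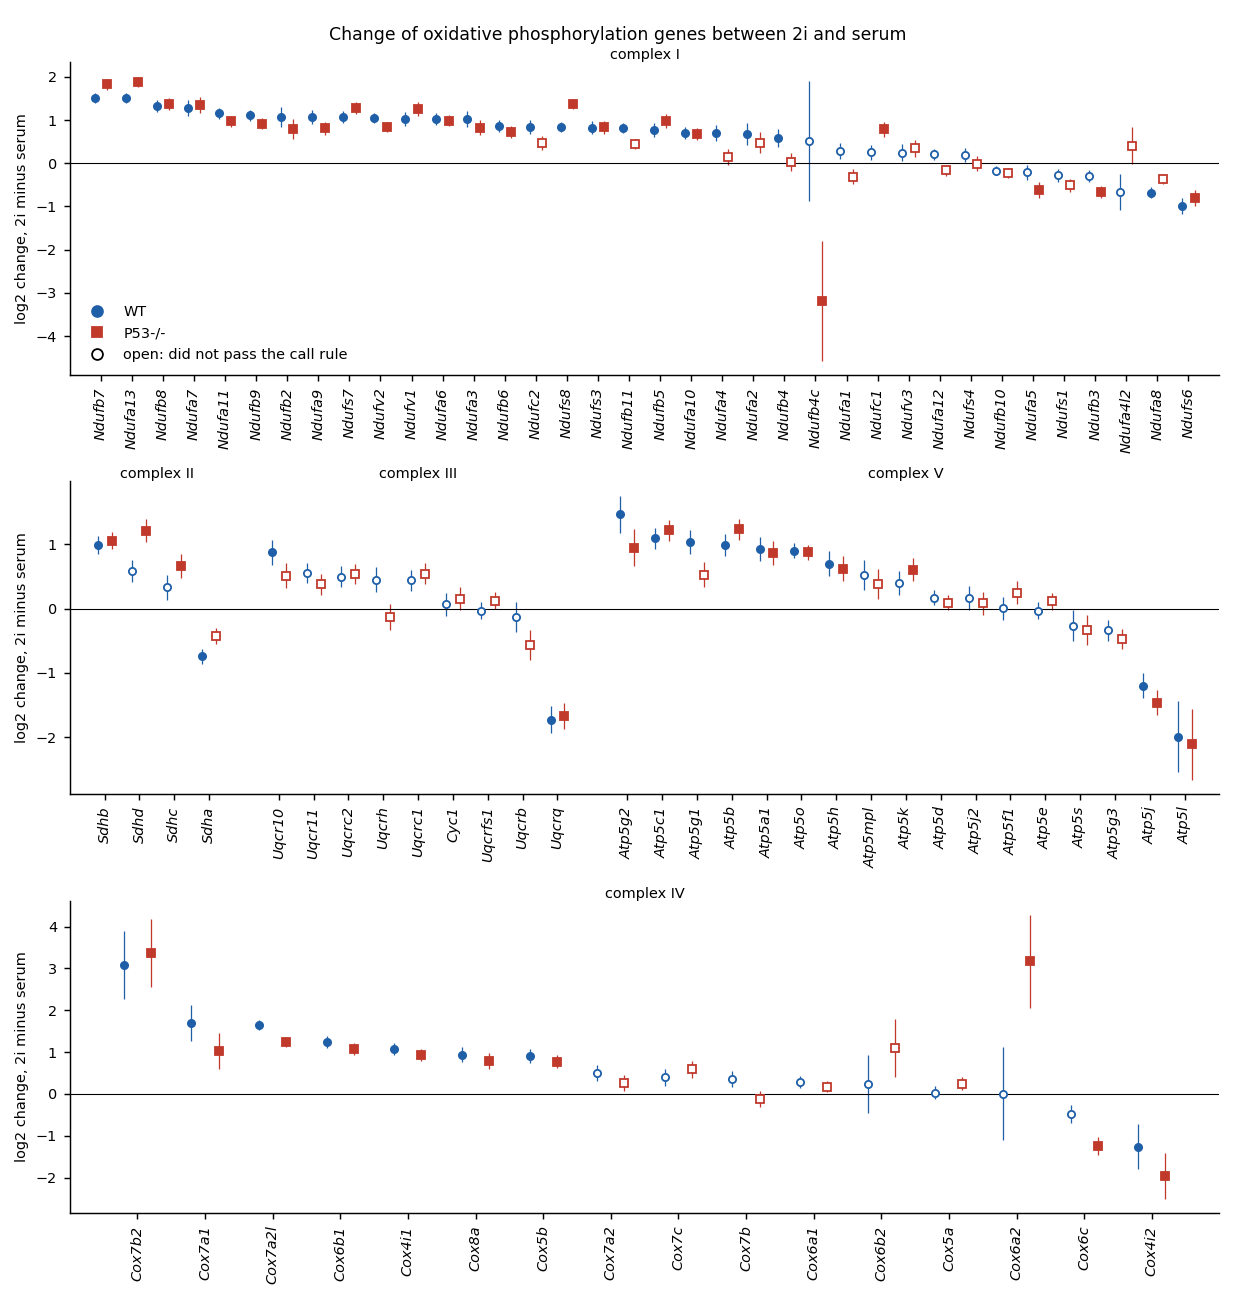
Log2 change of FPKM between 2i and serum for 82 of the 83 tested members, by complex and ordered by the WT value, with WT as circles, P53-/- as squares and bars of 1 standard error. Filled symbols passed the call rule. Most of complex I lies above 0 in both genotypes, while Atp5l, Atp5j, Uqcrq, Cox4i2 and Ndufs6 lie below.

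Complex I oxidises NADH, and 7 of its tested members are core subunits that carry flavin or iron-sulfur clusters or shape the quinone site. Of these, 6 were called higher in WT 2i and 5 in P53-/- 2i, where 27.2% and 28% of all genes were. Ndufv1, which binds the flavin and NADH, had 84.9 and 72.1 FPKM in WT serum, 164 and 156 in WT 2i, 74.9 and 57.8 in P53-/- serum and 171 and 145 in P53-/- 2i, with both 2i groups above both serum groups. Ndufs7, which sits next to the quinone site, had 34.7 and 42.1 FPKM in WT serum, 77.0 and 83.8 in WT 2i, 41.0 and 42.3 in P53-/- serum and 108 and 94.6 in P53-/- 2i, and its log2 change was 1.07 (SE 0.14, adjusted p = 4.0e-04) in WT and 1.28 (SE 0.14, adjusted p = 1.6e-04) in P53-/- cells. The exception among the core subunits was Ndufs1, the largest of them, at 102 and 93.1 FPKM in WT serum, 69.6 and 92.1 in WT 2i, 97.3 and 109 in P53-/- serum and 74.5 and 70.2 in P53-/- 2i, a log2 difference of -0.28 in WT (adjusted p = 0.15) and -0.51 in P53-/- cells (adjusted p = 0.021), neither past 1.5-fold. When each library was centred on its chromosome medians, the Ndufs1 values were 0.0064 (adjusted p = 0.96) and -0.056 (adjusted p = 0.69).

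Accessory subunits surround that core and help it assemble, and 17 of 27 were called higher and 2 lower in WT 2i, against 14 and 3 in P53-/- 2i. Of all genes, 27.2% were called higher and 28.6% lower in WT, and 28% and 30.1% in P53-/- cells. Ndufb7 (ENSMUSG00000033938.5, GRCm38 chr8:83566671-83571626), a disulfide-bonded subunit on the intermembrane side, had 113 and 114 FPKM in WT serum, 331 and 315 in WT 2i, 103 and 89.1 in P53-/- serum and 347 and 335 in P53-/- 2i. Its log2 change was 1.51 (SE 0.12, adjusted p = 6.5e-05) in WT and 1.83 (SE 0.12, adjusted p = 2.9e-05) in P53-/- cells, and no 2i value came near a serum value. Ndufa13 (ENSMUSG00000036199.9, GRCm38 chr8:69894180-69902558), also known as GRIM-19, had 68.7 and 66.2 FPKM in WT serum, 188 and 196 in WT 2i, 58.9 and 68.4 in P53-/- serum and 225 and 244 in P53-/- 2i, with changes of 1.51 (SE 0.12, adjusted p = 6.5e-05) and 1.88 (SE 0.12, adjusted p = 2.6e-05). Ndufb8, a membrane arm subunit, stood at 254 and 245 FPKM in WT serum, 608 and 649 in WT 2i, 234 and 238 in P53-/- serum and 674 and 558 in P53-/- 2i, which gave 1.33 in WT and 1.38 (SE 0.14, adjusted p = 1.3e-04) in P53-/- cells. Ndufa11, whose promoter is shown above, had 13.7 and 15.4 FPKM in WT serum, 34.8 and 30.2 in WT 2i, 14.1 and 14.8 in P53-/- serum and 29.1 and 27.9 in P53-/- 2i. Ndufb7, Ndufa13 and Ndufb8 had the greatest complex I rises in both genotypes, and each separated the media in all 8 libraries.

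A few accessory genes went the other way. Ndufs6 (ENSMUSG00000021606.8, GRCm38 chr13:73319838-73328542), a zinc-binding subunit added late in assembly, fell from 208 and 271 FPKM in WT serum to 110.5 and 129.9 in WT 2i, a log2 change of -0.99 (SE 0.18, adjusted p = 0.0025). In P53-/- cells it was 254 and 328 in serum and 159 and 170.4 in 2i, a change of -0.81 (SE 0.18, adjusted p = 0.0059). Ndufs6 lies on chromosome 13, whose 481 tested genes had a median of -0.61 in WT and -0.53 in P53-/- cells, and its WT change was -0.47 (adjusted p = 0.026) after centring on chromosomes and its P53-/- change -0.37 (adjusted p = 0.063), neither past 1.5-fold. The other members on that chromosome are Cox7c, Ndufs4, Sdha, Uqcrb and Uqcrfs1, and Ndufs4, not called before, passed in WT at 0.71 (adjusted p = 0.0069) after the same centring. The other member called lower in WT was Ndufa8, at 84.6 and 84.3 FPKM in serum and 51.5 and 54.0 in 2i, while in P53-/- cells Ndufa5 and Ndufb3 were called lower, at -0.62 and -0.66. After centring on chromosomes Ndufb3 lost its call, at -0.20 (adjusted p = 0.17). Ndufa5 kept its call at -0.82 (adjusted p = 0.0032), as did Ndufa8 in WT at -0.66 (adjusted p = 0.0018). Ndufb4c, the pseudogene, had 0 and 0.491 FPKM in WT serum, 0 and 1.12 in WT 2i, 2.51 and 1.88 in P53-/- serum and 0 and 0.528 in P53-/- 2i. It was called lower in P53-/- 2i (adjusted p = 0.078), but it reached the mean needed for a test only through P53-/- serum, its high group (0.356 FPKM over the other libraries), how reads shared with Ndufb4 were counted is not given in the sources used here, and leaving out either P53-/- serum library raised its adjusted p to 0.232 and 0.181.

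Ndufa4, the complex IV subunit with a complex I name, was among the most abundant members, at 528 and 687 FPKM in WT serum, 1048 and 921 in WT 2i, 895 and 980.4 in P53-/- serum and 1092 and 993 in P53-/- 2i. It was called higher in WT 2i, at 0.71 (SE 0.18, adjusted p = 0.012), and not in P53-/- 2i, at 0.15 (adjusted p = 0.49). After centring on chromosomes the WT change was 0.38 (adjusted p = 0.073), within 1.5-fold, so the call was lost, and the P53-/- value was -0.048 (adjusted p = 0.81). Of the P53-/- serum values, the higher lay within the range of the 2i values and the lower below it, and the difference between the genotypes' changes had an adjusted p of 0.42. Its relative Ndufa4l2, known to be induced by hypoxia, lay between 0.447 and 1.09 FPKM in all libraries without a call.

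Complex II, the succinate dehydrogenase that also serves the citric acid cycle, has 4 genes. Sdhb, the iron-sulfur subunit, had 102 and 113 FPKM in WT serum, 206 and 219 in WT 2i, 118 and 107 in P53-/- serum and 256 and 214 in P53-/- 2i, with changes of 0.98 (SE 0.14, adjusted p = 6.0e-04) and 1.06 (SE 0.14, adjusted p = 3.8e-04). Sdha (ENSMUSG00000021577.14, GRCm38 chr13:74322254-74350280), the flavoprotein that pairs with Sdhb, had 104 and 100.4 FPKM in WT serum, 55.9 and 66.7 in WT 2i, 104 and 111 in P53-/- serum and 80.5 and 79.8 in P53-/- 2i, so that it was below serum in every 2i library. Its change was -0.74 (SE 0.12, adjusted p = 0.0014) in WT and -0.42 (SE 0.12, adjusted p = 0.018) in P53-/- cells, the latter within 1.5-fold, and Sdha too lies on chromosome 13. After centring on chromosomes the values were -0.23 (adjusted p = 0.14) and 0.024 (adjusted p = 0.87), so the WT call was lost and the P53-/- direction turned. The membrane anchors Sdhc and Sdhd had log2 differences of 0.33 and 0.58 in WT without a call, and rose by 0.67 and 1.21 in P53-/- cells, where both were called. After centring on chromosomes both passed the call rule in WT too, Sdhc at 0.62 (adjusted p = 0.022) and Sdhd at 0.92 (adjusted p = 3.2e-04). The P53-/- values were then 1.12 and 1.31. Whether the anchors differed between genotypes was tested by the interaction, with adjusted p of 0.62 for Sdhc and 0.34 for Sdhd.

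Complex III had few calls. Its redox subunits Cyc1, the cytochrome c1, and Uqcrfs1, the Rieske iron-sulfur protein, had log2 differences of 0.07 and -0.03 in WT and 0.15 and 0.12 in P53-/- cells. Uqcrfs1 lies on chromosome 13, and after centring on chromosomes it was at 0.48 (adjusted p = 0.013) in WT and 0.57 (adjusted p = 0.0061) in P53-/- cells, within 1.5-fold. The core proteins Uqcrc1 and Uqcrc2 rose within 1.5-fold, by 0.44 and 0.49 in WT and 0.54 and 0.54 in P53-/- cells, with adjusted p between 0.019 and 0.048. Centring on transcript length turned these to -0.11 and -0.055 in WT and -0.053 and -0.055 in P53-/- cells. Uqcr10, a small subunit, was called higher in WT, at 449.9 and 562 FPKM in serum and 908 and 933 in 2i. Uqcrq (ENSMUSG00000044894.14, GRCm38 chr11:53427922-53430831), a small membrane subunit, was the complex III gene called lower. It had 53.8 and 64.1 FPKM in WT serum, 20.3 and 15.5 in WT 2i, 52.5 and 56.5 in P53-/- serum and 20.4 and 14.2 in P53-/- 2i, with log2 changes of -1.72 (SE 0.20, adjusted p = 2.9e-04) and -1.67 (SE 0.20, adjusted p = 2.9e-04). Uqcrb, another small subunit, had log2 differences of -0.13 in WT (adjusted p = 0.64) and -0.57 in P53-/- cells (adjusted p = 0.064), the latter within 1.5-fold, and 0.38 and -0.12 after centring on chromosomes.

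In complex IV several subunits have a general isoform and a tissue-restricted relative. Of 10 general isoforms, 4 were called higher in WT 2i, namely Cox4i1, Cox5b, Cox6b1 and Cox8a, and the same 4 in P53-/- 2i. Of all genes, 27.2% and 28% were called higher. In either direction 40% of the general isoforms were called in WT and 50% in P53-/- cells, below the 55.7% and 58.2% of all genes. Cox4i1, the regulatory subunit, had 479 and 527 FPKM in WT serum, 1049.6 and 1075 in WT 2i, 494 and 490.0 in P53-/- serum and 936 and 931 in P53-/- 2i, and Cox6b1, which links the monomers of the complex, had 276 and 282 FPKM in WT serum, 668 and 652 in WT 2i, 305 and 379 in P53-/- serum and 756 and 677 in P53-/- 2i. Each of these pairs of 2i values exceeded every serum value. Cox5a, Cox6a1, Cox7a2, Cox7b and Cox7c were called in neither genotype. After centring on chromosomes Cox7c, on chromosome 13, passed the call rule at 0.91 (adjusted p = 0.013) in WT and 1.03 (adjusted p = 0.0072) in P53-/- cells, and Cox7a2 did so in WT at 0.83 (adjusted p = 0.0059). Cox6c, at 831 and 1203 FPKM in WT serum, 718 and 712 in WT 2i, 1515 and 1837 in P53-/- serum and 747 and 660.0 in P53-/- 2i, was called lower in P53-/- 2i, at -1.25 (SE 0.22, adjusted p = 0.0016), and changed by -0.48 in WT within 1.5-fold. Its level in P53-/- serum was above that in WT serum, while the 2i levels of the genotypes overlapped.

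The list of alternative isoforms, which also holds the Atp5g genes described later, had 9 tested genes, of which 5 were called in each genotype, a share near the 55.7% and 58.2% of all genes. Cox7b2, the testis form of subunit 7b, rose most of all members in WT cells, from 1.57 and 1.96 FPKM in serum to 16.9 and 14.3 in 2i, a log2 change of 3.08 (SE 0.81, adjusted p = 0.012). In P53-/- cells it was 1.11 and 10.5 in serum and 32.3 and 42.6 in 2i, at 3.38 (SE 0.81, adjusted p = 0.0078), and the change ranged from 1.82 to 4.94 as libraries were left out, being smallest without the first P53-/- serum library. Cox7b2 made up 3.18% to 7.85% of the summed FPKM of Cox7b and Cox7b2 in 2i. Cox7a1, the muscle form of subunit 7a, had 29.8 and 32.6 FPKM in WT serum, 133 and 75.3 in WT 2i, 30.4 and 64.9 in P53-/- serum and 124 and 65.7 in P53-/- 2i, with changes of 1.68 (SE 0.43, adjusted p = 0.011) and 1.02 (SE 0.43, adjusted p = 0.07), and its share of the sum with Cox7a2 was 10.7 and 8.37% in WT serum and 25.0 and 14.6% in WT 2i. In P53-/- cells that share overlapped between media, at 6.25 and 13.5% in serum and 19.1 and 11.2% in 2i. Cox4i2, the hypoxia-linked form of subunit 4, fell from 1.17 and 1.26 to 0.622 and 0.315 FPKM in WT and from 0.717 and 1.92 to 0.170 and 0.300 in P53-/- cells, with changes of -1.26 (SE 0.54, adjusted p = 0.077) and -1.96 (SE 0.54, adjusted p = 0.014). The WT call of Cox4i2 was lost when either WT serum library or the second WT 2i library was left out, with adjusted p from 0.162 to 0.273.

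Cox7a2l (ENSMUSG00000024248.14, GRCm38 chr17:83501918-83517330), the supercomplex factor, had the smallest p of the complex IV genes in WT cells. Its FPKM were 58.2 and 51.6 in WT serum, 174 and 169 in WT 2i, 50.2 and 50.2 in P53-/- serum and 126 and 112 in P53-/- 2i, so that the 4 groups separated by medium and, within 2i, by genotype. The log2 change between media was 1.64 (SE 0.12, adjusted p = 4.4e-05) in WT and 1.24 (SE 0.12, adjusted p = 9.7e-05) in P53-/- cells.

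**Figure D3:**
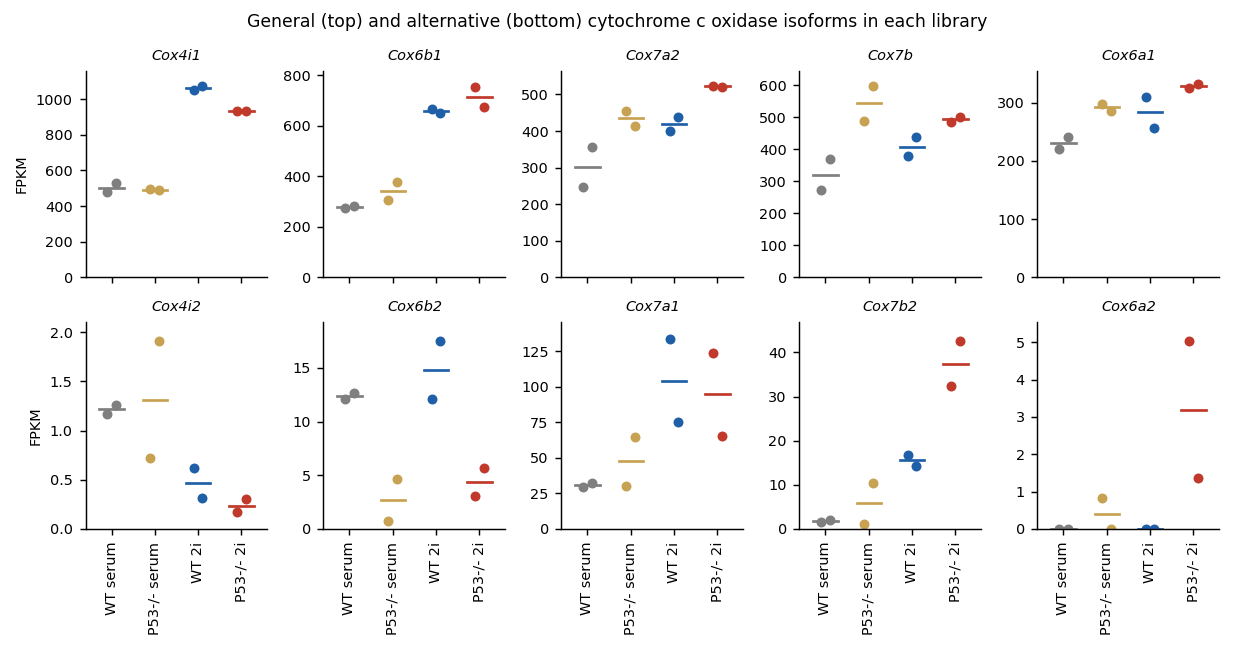
FPKM of 5 general isoforms of complex IV (top row) and of the alternative isoform of the same subunit (bottom row) in each library, on linear axes from 0. Points are libraries and bars are means of 2. Cox4i1 rose as Cox4i2 fell between serum and 2i, and Cox6b2 was lower in every P53-/- library than in every WT library.

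The ATP synthase joins an F1 head that makes ATP to a membrane rotor through a central and a peripheral stalk. The 3 large F1 genes rose together. Atp5a1 for the alpha subunit had 369 and 346 FPKM in WT serum, 593 and 776 in WT 2i, 344 and 434 in P53-/- serum and 714 and 688 in P53-/- 2i, and Atp5b for the catalytic beta subunit had 999.6 and 963 FPKM in WT serum, 1921 and 1975 in WT 2i, 998 and 923 in P53-/- serum and 2342 and 2166 in P53-/- 2i. Atp5c1 for the gamma subunit of the central stalk had 260.0 and 289 FPKM in WT serum, 510.4 and 670.3 in WT 2i, 254 and 259 in P53-/- serum and 609 and 582 in P53-/- 2i. Their log2 changes were 0.92, 0.99 and 1.09 in WT and 0.86, 1.23 and 1.21 in P53-/- cells, with adjusted p of at most 0.0044. The small F1 subunits delta (Atp5d) and epsilon (Atp5e) had log2 differences of 0.17 and -0.03 in WT, with adjusted p of 0.24 and 0.84.

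Within the peripheral stalk, which keeps the head from turning, the genes parted. Atp5o, the subunit that confers oligomycin sensitivity, and Atp5h, subunit d, were called higher in both genotypes, with Atp5o at 166 and 174 FPKM in WT serum, 306 and 328 in WT 2i, 181 and 182 in P53-/- serum and 348 and 318 in P53-/- 2i. Atp5f1, subunit b, had log2 differences of 0.01 in WT and 0.25 in P53-/- cells without a call. Atp5j (ENSMUSG00000022890.13, GRCm38 chr16:84827866-84835625), coupling factor 6, had 239 and 317 FPKM in WT serum, 118 and 123 in WT 2i, 288 and 408 in P53-/- serum and 122 and 126 in P53-/- 2i, and its changes were -1.20 (SE 0.20, adjusted p = 0.0014) and -1.46 (SE 0.20, adjusted p = 4.6e-04). All 4 values of Atp5j in 2i were below all 4 in serum. The same held for Atp5l (ENSMUSG00000038717.8, GRCm38 chr9:44912557-44920742), subunit g of the membrane part, with 35.9 and 86.3 FPKM in WT serum, 21.6 and 9.02 in WT 2i, 82.6 and 64.5 in P53-/- serum and 25.0 and 11.4 in P53-/- 2i. Its changes were -1.99 (SE 0.55, adjusted p = 0.015) and -2.11 (SE 0.55, adjusted p = 0.011), and the WT value was -1.36 (adjusted p = 0.134) without the second WT serum library. The neighbouring membrane subunits Atp5k and Atp5j2 had log2 differences of 0.40 and 0.16 in WT and 0.61 and 0.08 in P53-/- cells, where Atp5k was called higher (adjusted p = 0.02).

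The 3 genes for the c subunit showed a shift in their mix. Atp5g1 had 119 and 127 FPKM in WT serum, 255 and 248 in WT 2i, 146 and 157 in P53-/- serum and 269.7 and 176 in P53-/- 2i, Atp5g2 had 17.0 and 15.9 FPKM in WT serum, 56.2 and 36.9 in WT 2i, 18.8 and 25.2 in P53-/- serum and 54.6 and 32.3 in P53-/- 2i, and Atp5g3 had 410.5 and 494 FPKM in WT serum, 345 and 367 in WT 2i, 453 and 514 in P53-/- serum and 378 and 320.2 in P53-/- 2i. Atp5g1 was called higher in WT 2i (1.03, adjusted p = 0.0025) and passed only the p threshold in P53-/- cells (0.53, adjusted p = 0.044), and Atp5g2 was called higher in both (1.47 and 0.95). Atp5g3 had log2 differences of -0.34 and -0.47, below 1.5-fold. The sum of the 3 genes was 546 and 636 FPKM in WT serum and 657 and 652 in WT 2i, and 617 and 696 against 703 and 528 in P53-/- cells, so that the sums of the media overlapped in P53-/- cells and did not in WT cells. Atp5g3 made up 75.1 and 77.6% of the sum in WT serum and 52.6 and 56.3% in WT 2i, and 73.3 and 73.9% and 53.9 and 60.6% in P53-/- cells. Of the 3 promoters printed above, those of Atp5g2 and Atp5g3 hold the NRF1 letters, and of these Atp5g2 was called higher in both genotypes and Atp5g3 in neither.

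**Figure D4:**
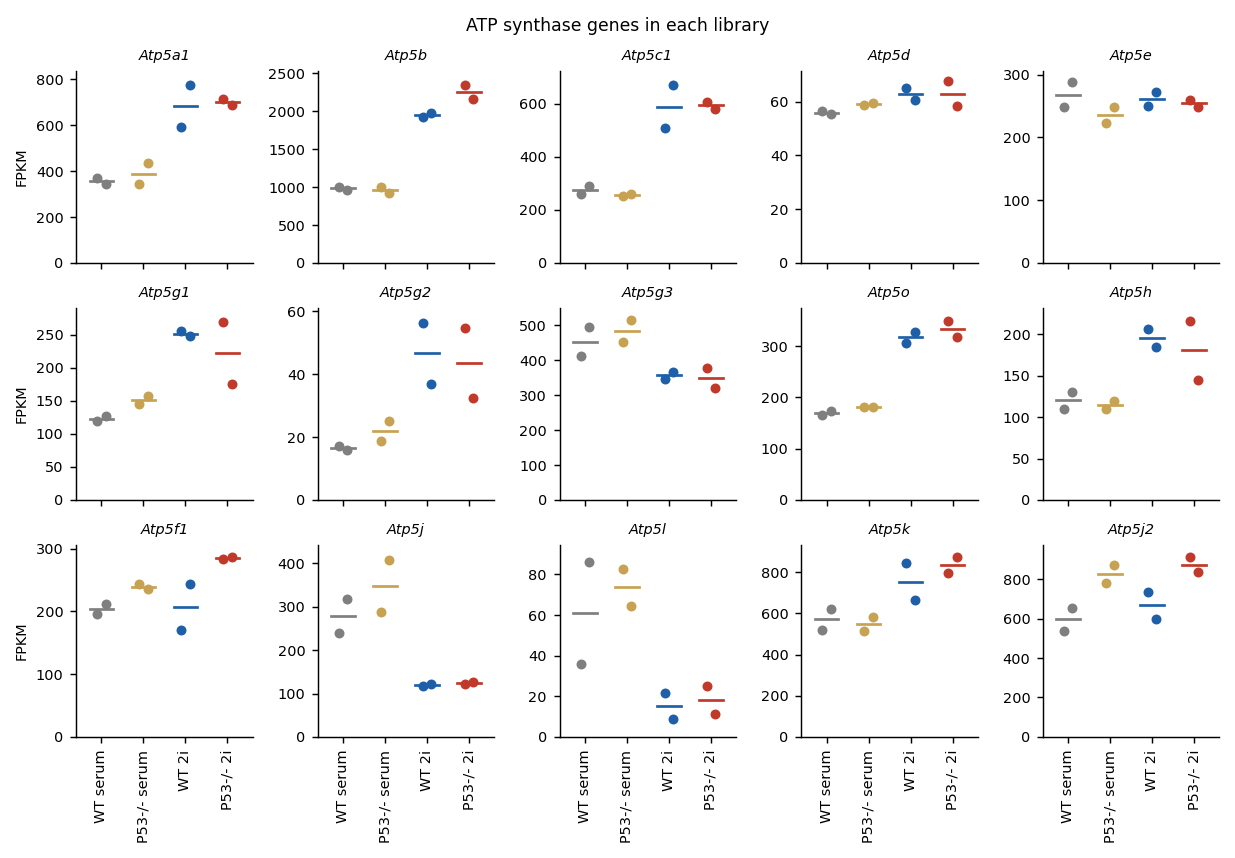
FPKM of 15 ATP synthase genes in each library on linear axes from 0, with F1 head genes in the top row, then the c subunit genes with Atp5o and Atp5h, then Atp5f1, Atp5j and 3 membrane subunits. Points are libraries and bars are means of 2. Atp5a1, Atp5b and Atp5c1 are higher in all 2i libraries, Atp5d and Atp5e overlap between media, and Atp5j and Atp5l are lower in 2i.

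The second question was what the loss of P53 changed in each medium. In 2i, 2 members were called, Cox6a2 and Atp5s, both higher in P53-/- cells, beside a background of 10.3% of all genes called and 4.36% called higher. Cox6a2 reached the mean of 0.5 FPKM only through P53-/- 2i, the group in which it is high (mean of the other libraries 0.138 FPKM), so its call had that group behind both the filter and the test. At any fold 5 members passed the p threshold, where 13.7% of all genes did, with Ndufs8 and Sdha higher and Cox7a2l lower as the additional genes. The median log2 difference of the members was 0.05, beside 0.02 for all genes. Its sign turned with quantile normalization and with centring on transcript length, as given in the closing section. In serum 0 members were called by limma (background 1.02%), and 17 had an unadjusted p below 0.05, as did 1422 of all genes. Their median difference was 0.11, beside 0.02 for all genes, and 0.18 without the second WT serum library. The interaction, which asks whether the P53 difference depended on the medium, called 0 members by limma (background 0.207%) and 4 had an unadjusted p below 0.05, namely Cox6c, Cox7a2l, Ndufs8 and Sdhd, beside 1651 of all genes. The counts changed when single libraries were left out. A library of the other medium is not in the comparison, so leaving it out kept the differences and changed only the spread estimated over the 4 groups. With any library left out, fewer of all genes were called in 2i as well. In 2i the count was 0 without either WT serum library, the first WT 2i or the second P53-/- 2i library, 1 without the first P53-/- 2i library and 3 without either P53-/- serum library. For serum, leaving out the first P53-/- serum library gave 2 calls and leaving out the other gave 1.

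**Figure D5:**
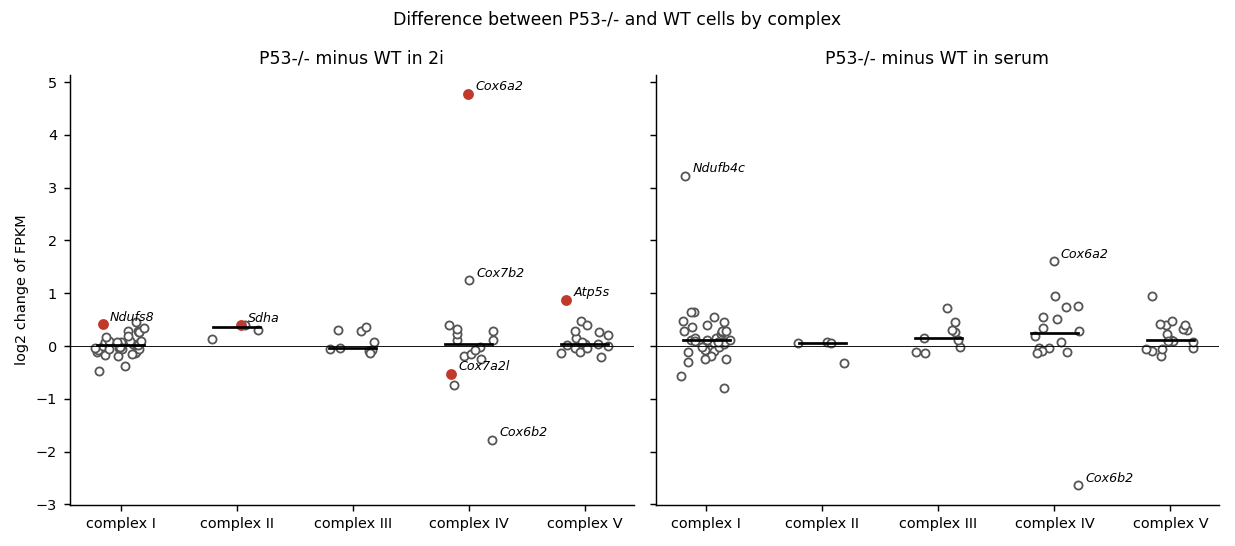
Log2 difference between P53-/- and WT cells for each tested member in 2i (left) and serum (right), by complex, with bars at the complex medians. Filled points passed the adjusted p threshold of 0.1 and genes past 1.2 in size are also named. In serum the abundant genes Cox7b, Cox6c and Ndufa4 lie above 0 at 0.77, 0.74 and 0.64 without passing the threshold, and Cox6b2 lies lowest in both media.

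Cox6a2 (ENSMUSG00000030785.8, GRCm38 chr7:128205435-128206387), the muscle form of subunit 6a, was listed at 0 in all 4 WT libraries and reached 5.02 and 1.36 FPKM with P53-/- 2i cells, beside 0.825 and 0 in P53-/- serum. Its adjusted p in 2i was 0.046, and it rose above 0.1 when either WT serum library, either WT 2i library or either P53-/- 2i library was left out, to between 0.101 and 0.2. Between the media, a comparison with the same limit, it was called higher in P53-/- 2i, at 3.17 (SE 1.11, adjusted p = 0.038). That change was 1.56 (adjusted p = 0.162) without the second P53-/- serum library, 2.26 (adjusted p = 0.219) without the first P53-/- 2i library and 4.77 without the first P53-/- serum library, and with a pseudocount of 0.01 the call was lost (adjusted p = 0.14). Cox6a2 made up at most 1.52% of its sum with Cox6a1. Atp5s had 3.62 and 2.73 FPKM in WT serum, 2.28 and 2.96 in WT 2i, 6.51 and 5.80 in P53-/- serum and 4.15 and 5.69 in P53-/- 2i, higher in all 4 P53-/- libraries than in any WT library, with differences of 0.88 (SE 0.24, adjusted p = 0.069) in 2i and 0.94 (SE 0.24, adjusted p = 0.19) in serum. Without the second P53-/- 2i library the 2i adjusted p was 0.287. Both called genes had means at the low end of their complexes.

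The other members past the p threshold in 2i changed by less than 1.5-fold. Ndufs8, a core subunit with iron-sulfur clusters, was at 131 and 130.3 FPKM in P53-/- 2i against 99.2 and 97.1 in WT 2i, a difference of 0.41 (SE 0.11, adjusted p = 0.073), and -0.11 in serum. It fell short of the p threshold in 9 of 21 alternatives, with adjusted p of up to 0.329. Sdha, at 80.5 and 79.8 FPKM in P53-/- 2i against 55.9 and 66.7 in WT 2i, differed by 0.39 (SE 0.12, adjusted p = 0.099), which fell to 0.16 (adjusted p = 0.438) after centring on chromosomes. Cox7a2l, at 126 and 112 FPKM in P53-/- 2i against 174 and 169 in WT 2i, differed by -0.53 (SE 0.12, adjusted p = 0.041) and by -0.13 in serum (adjusted p = 0.73). The difference between its P53 effects in the media had an adjusted p of 0.37.

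Cox6b2 (ENSMUSG00000051811.14, GRCm38 chr7:4751792-4753094), the testis form of subunit 6b, had the largest negative differences without passing the threshold. Its FPKM were 12.2 and 12.7 in WT serum, 12.1 and 17.5 in WT 2i, 0.751 and 4.65 in P53-/- serum and 3.08 and 5.65 in P53-/- 2i, and all 4 P53-/- values were below all 4 WT values. The difference was -2.64 (SE 0.69, adjusted p = 0.22) in serum and -1.78 (SE 0.69, adjusted p = 0.16) in 2i. Over both media, the 4 P53-/- and 4 WT libraries did not overlap for 4 members. Cox6b2 was lower in P53-/- cells, where this held for 2.52% of all genes, and Atp5s, Atp5j2 and Cox7b were higher, where it held for 1.67%. Atp5j2 had 535 and 656 FPKM in WT serum, 736 and 598 in WT 2i, 779.6 and 871 in P53-/- serum and 909 and 837 in P53-/- 2i, and Cox7b had 272 and 370.2 FPKM in WT serum, 378 and 437 in WT 2i, 487 and 598 in P53-/- serum and 486 and 499.8 in P53-/- 2i. Of these 4, Atp5s alone was called, in 2i. In serum the other positive differences with the smallest unadjusted p, beside that of Atp5s, were those of Cox7b (0.77, adjusted p = 0.19), Ndufa4 (0.64, adjusted p = 0.26) and Cox6c (0.74, adjusted p = 0.26).

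Genes that build, feed or control the chain give the setting. Against the 27.2% of all genes called higher and 28.6% called lower in WT 2i than in serum, and the 28% and 30.1% in P53-/- cells, 11 of 51 assembly factors were called higher and 10 lower in WT and 14 and 10 in P53-/- cells. Ndufaf2, a chaperone of complex I, had 90.0 and 107 FPKM in WT serum, 29.2 and 35.3 in WT 2i, 101 and 110.4 in P53-/- serum and 36.8 and 36.2 in P53-/- 2i, a change of -1.61 (adjusted p = 8.6e-05) in WT, and Cox11, which delivers copper to complex IV, changed by -1.73 (adjusted p = 2.7e-04). Sco2 rose by 1.56 (adjusted p = 0.0016) in WT. In P53-/- cells the greatest changes were those of Cmc1 (-2.06), Ndufaf6 (1.90) and Cox20 (-1.61). Between genotypes in 2i, Sco2, a copper chaperone of complex IV and a known P53 target, was lower in P53-/- cells, at 8.15 and 5.49 FPKM against 15.3 and 12.7 in WT, a log2 difference of -1.05 (adjusted p = 0.06), and Ndufaf6 was higher by 0.65 (adjusted p = 0.066). In serum Sco2 was at 2.96 and 4.72 FPKM in P53-/- cells against 4.51 and 4.80 in WT, and Sdhaf3, a complex II factor, was the 1 gene called, higher at 0.85 (adjusted p = 0.097). The list thus had 2 calls between genotypes in 2i (background 10.3%) and 1 in serum (1.02%).

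Of 15 electron carrier genes, 5 were called higher and 2 lower in WT 2i, against 7 and 2 for P53-/- 2i. The shares called, 46.7% and 60.0%, were near the 55.7% and 58.2% of all genes. Between genotypes 0 were called in either medium, beside 10.3% of all genes in 2i and 1.02% in serum. An unadjusted p below 0.05 in limma was found for 7 in 2i and 3 in serum, beside 3173 and 1422 of the 12572 genes. Etfa, part of the flavoprotein that takes electrons from fatty acid oxidation, had 56.8 and 70.8 FPKM in WT serum, 17.6 and 22.2 in WT 2i, 82.8 and 70.2 in P53-/- serum and 29.1 and 23.5 in P53-/- 2i, while its partner Etfb rose by 1.09 (adjusted p = 2.6e-04) in P53-/- cells. Coq4 and Coq3, of ubiquinone synthesis, rose by 1.67 (adjusted p = 5.5e-04) and 0.90 (adjusted p = 5.7e-04) in WT, and Coq4 by 1.43 (adjusted p = 0.001) in P53-/- cells. The citric acid cycle list, with 19 genes, had 3 called higher and 3 lower in WT and 5 and 2 in P53-/- cells, where 55.7% and 58.2% of all genes were called. Idh2, the NADP-dependent isocitrate dehydrogenase, had 33.3 and 31.3 FPKM in WT serum, 131 and 115 in WT 2i, 22.4 and 33.4 in P53-/- serum and 185 and 179 in P53-/- 2i, and Idh3a, of the NAD-dependent enzyme, changed by -1.54 (adjusted p = 2.2e-04) in WT. Dld changed by -1.28 in WT, and Idh3g by 1.01 in P53-/- cells. Between genotypes in 2i, Idh3a and Dld were higher in P53-/- cells, by 0.92 (adjusted p = 0.023) and 0.73 (adjusted p = 0.02), and Pcx had a difference of -0.75 (adjusted p = 0.044), where 10.3% of all genes were called. In serum 0 of the list were called, where 1.02% of all genes were, and 3 had an unadjusted p below 0.05 in limma, beside 1422 of the 12572 genes.

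Of 15 tested mitochondrial biogenesis factors, 2 were called higher and 8 lower in WT 2i, against 3 and 9 for P53-/- 2i, where 28.6% and 30.1% of all genes were called lower. Myc had 22.0 and 26.9 FPKM in WT serum, 0.895 and 0.161 in WT 2i, 26.9 and 21.2 in P53-/- serum and 0.349 and 0.464 in P53-/- 2i, and Tfb2m, a mitochondrial transcription factor, had 7.23 and 5.14 FPKM in WT serum, 0.923 and 1.69 in WT 2i, 6.85 and 7.08 in P53-/- serum and 0.995 and 1.08 in P53-/- 2i. Ppargc1b, a coactivator of respiratory genes, changed by -1.89 (adjusted p = 0.0093) in WT and -2.30 (adjusted p = 0.0035) in P53-/- cells. Limma called 0 of these factors between genotypes, beside 10.3% of all genes in 2i and 1.02% in serum. An unadjusted p below 0.05 was found for 3 factors in 2i and 0 in serum, beside 3173 and 1422 of the 12572 genes.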

How the data were processed

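RNA of sorted G1 cells was depleted of rRNA, random-primed and made into stranded libraries. The authors deposited FPKM for 24881 gene symbols in 8 libraries, and the submitters' processing notes name mm9, STAR, Cufflinks and DESeq2 without versions or roles. The annotation and the handling of reads shared between copies are not given in the sources used here.

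Libraries were grouped by the labels. FPKM were taken as log2(FPKM + 0.1), so that fold changes are on that scale and understate those of low genes. The 12572 genes with a mean of at least 0.5 FPKM entered 1 fit of the 4 groups in limma 3.58.1 (R 4.3.3, eBayes with trend), with Benjamini-Hochberg adjustment over all of them. In a simulation, 200 genes were given a log2 change of 1 between media. Of these, 126 in WT and 118 in P53-/- cells were called in the right direction, and 13 and 8 unchanged genes were called. FPKM steps gave relative depths only. Positions and lengths came from GENCODE M21 (GRCm38, not the authors' build), matched for 98.2% of symbols.

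The genes named were, with 1 exception not reported here, in each comparison the 5 greatest rises and 5 greatest falls among members called (where fewer than 3 were called in a direction, also up to 3 past the p threshold), the highest and lowest member of each complex, the alternative isoforms, and the 3 greatest called changes of each other list. Members and lists were chosen with earlier results of these data known, and the subunit classes and further genes after their values were seen. The alternatives changed the pseudocount, filter, scaling, centring, libraries and fit.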

Additional observations from a re-analysis of the deposited data

How the results depend on the processing

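Of the choices tried, no change that the naming rule selects turned its direction. Of other members past the p threshold between media, Sdha in P53-/- cells turned with chromosome centring (from -0.42 to 0.024), and Uqcrc1 and Uqcrc2 in both genotypes with length centring (values of -0.11 to -0.053), as did, with GC centring, Uqcr11 in P53-/- cells (-0.0081). The counts called between media stayed within 1.5 times of 47 in WT and 46 in P53-/- cells under every alternative run, with 43 to 51 and 40 to 49 when a library was left out. The members' medians moved more. With quantile normalization the WT median was 0.76, with 0.99, 0.64, 0.67, 0.64 and 0.66 for complexes I to V, the P53-/- median was 0.62, that of P53-/- minus WT in 2i was -0.13 and that of the interaction -0.25. Centring on chromosome medians gave 0.70 in WT, with 0.77, 0.81 and 0.55 for complexes II, IV and V, and 1.10, 0.45, 0.93 and 0.55 for complexes II to V in P53-/- cells. Centring on transcript length gave 0.42 in WT, with 0.50, 0.24 and -0.11 for complexes I to III, 0.36 in P53-/- cells, with 0.37, 0.62 and -0.22, and -0.045 for P53-/- minus WT in 2i. Centring on GC content, chosen after seeing the data, gave 0.63, 0.26, 0.60 and 0.22 for complexes I, III, IV and V in WT, and 0.66 and 0.65 for complexes II and IV in P53-/- cells. A minimum mean of 1 FPKM gave 0.70 for complex IV in WT. The cause was not tested where these settings do not show it themselves.

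Leaving out each library in turn, the medians in WT ran from 0.46 to 0.71 for all members, 0.25 to 0.52 for complex III, 0.44 to 0.67 for complex IV and 0.19 to 0.53 for complex V. In P53-/- cells they ran from 0.43 to 0.62 for all members and, for complexes I to V, 0.56 to 0.73, 0.68 to 1.04, 0.054 to 0.33, 0.47 to 0.78 and 0.26 to 0.49. For P53-/- minus WT in 2i the median ran from 0.0055 to 0.15, the members called from 0 to 3 and those past the p threshold from 0 to 5. In serum the count ran from 0 to 2.

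The 2 calls of P53-/- minus WT in 2i became 0 when limma was fitted to the compared groups alone, and 1 with a pseudocount of 0.01, no filter, a minimum mean of 1 FPKM, chromosome centring, GC centring or an adjusted p below 0.05. The 5 members past the p threshold became 3 with a pseudocount of 0.01, a minimum of 1 FPKM, quantile normalization, no trend or length centring, 2 at an adjusted p below 0.05 and 0 in the fit of the compared groups, which called 193 of all genes in place of 1299. Of the alternatives for single members, 455 stayed on their side of the threshold and 65 fell short of it. For P53-/- minus WT in 2i, Cox6a2 fell short in 8 of 20, and Atp5s, Ndufs8, Sdha and Cox7a2l in 12, 9, 17 and 3 of 21, with adjusted p of up to 0.287 for Atp5s, 0.329 for Ndufs8 and 0.438 for Sdha. No paired analysis was possible because the columns carry no replicate numbers. FPKM carry no read counts, so that the precision of low members such as Cox6a2, Cox4i2 and Ndufb4c is known only from the spread between libraries. Limma pooled that spread over the groups, with 2 libraries in each, and drew it toward that of other genes. For Cox6a2 both WT groups were at 0 and added no spread to the pool.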
